A study of Arabidopsis thaliana with 24 samples.

Results

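The genes described here encode the central proteins of cytoplasmic mRNA decapping and a pair of deadenylase subunits in the plant Arabidopsis thaliana. They were chosen by name and were found as 10 of the 32833 genes of the count table: the deadenylase genes CAF1a (AT3G44260) and CAF1b (AT5G22250), the Sm-like genes LSM1A (AT1G19120) and LSM1B (AT3G14080), PAT1 (AT1G79090), DCP1 (AT1G08370), DCP2 (AT5G13570), VCS (AT3G13300), DCP5 (AT1G26110) and XRN4 (AT1G54490). RNA was measured by strand-specific, paired-end sequencing of whole 9-day-old seedlings raised with 1% sucrose on 1/2 MS, a half-strength mineral medium. The wild-type plants were Col-0, and a single mutant line, exa1-1, was compared with them. Each genotype gave 4 groups of 3 libraries. The salt series held plants on plain 1/2 MS and plants on 1/2 MS with 200 mM NaCl, and the heat series held plants at 23 °C and plants at 39 °C, each for 60 min. The 3 libraries of a group are biological replicates by the series description, and the same numbers in different groups did not pair them.

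An mRNA in the cytoplasm usually loses its poly(A) tail first. The CCR4-NOT complex removes the tail, and CAF1 proteins are one of its catalytic subunit types. The shortened tail is bound by a ring of Sm-like proteins that holds LSM1 and works with PAT1 to activate decapping. DCP2 then cleaves the cap with DCP1 as its partner on the scaffold protein VCS (VARICOSE), while DCP5, of the family named after Scd6 in yeast and LSM14 in animals, represses translation and helps processing bodies to form. The uncapped RNA is degraded from its 5′ end by XRN4, the cytoplasmic exonuclease of plants. EXA1, the gene affected in exa1-1, encodes a protein with a GYF domain, and in animals GYF proteins are known to link cap-bound repressors to CCR4-NOT.

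CAF1a and CAF1b varied most among the 10 genes. CAF1a is a gene of 1 exon on the minus strand of chromosome 3 from 15952008 to 15953346, and CAF1b, also of 1 exon, lies on the minus strand of chromosome 5 from 7365477 to 7366799 (RefSeq, build TAIR10.1). The 250 bases before the annotated start of CAF1b, the gene of the pair whose heat and control set differences were smaller, are shown in the sense of the gene. Capitals mark the only match to 4 motifs searched on both strands, GAANNTTC (a heat shock element core), ACGTG (the core of the abscisic acid response element), CACGTG (the G-box, which contains ACGTG) and CGCGTT (the rapid stress response element).
CAF1b, chr5:7366800-7367049, minus strand: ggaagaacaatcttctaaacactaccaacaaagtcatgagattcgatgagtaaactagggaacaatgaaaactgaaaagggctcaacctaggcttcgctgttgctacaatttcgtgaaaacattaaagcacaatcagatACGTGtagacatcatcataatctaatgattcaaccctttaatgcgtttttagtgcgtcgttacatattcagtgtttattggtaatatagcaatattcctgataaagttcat
The CAF1b window had 35.2% G and C and held 1 ACGTG, 106 bases before the start, a motif present in 22.9% of 27437 such windows of protein-coding genes. It held no GAANNTTC, a motif in 9.55% of windows, and no CGCGTT, in 2.59%.

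The other 8 genes have 5 to 22 exons. On the plus strand lie DCP1 (chromosome 1, 2638037 to 2640663), LSM1A (chromosome 1, 6608115 to 6609369), XRN4 (chromosome 1, 20350109 to 20356916), VCS (chromosome 3, 4303822 to 4310275), LSM1B (chromosome 3, 4667308 to 4669194) and DCP2 (chromosome 5, 4367262 to 4370429). On the minus strand lie DCP5 (chromosome 1, 9024341 to 9027955) and PAT1 (chromosome 1, 29749101 to 29753330), whose own 250 bases before the start hold the only G-box among the 10 genes, a motif in 6.49% of windows.

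Libraries held between 17658196 and 20992263 counted fragments, and replicates correlated at 0.984 to 0.994 over genes. EXA1 itself was lower in exa1-1 in each condition, with log2 differences of -1.79 ± 0.06 (SE, n = 3 libraries per group, here and below) on 1/2 MS, -1.84 ± 0.03 with NaCl, -2.12 ± 0.05 in the 23 °C libraries and -3.07 ± 0.17 in the 39 °C libraries, and so matched the genotype labels. The salt marker RD29A (LTI78 in the files) had a log2 change of 4.86 ± 0.10 under NaCl and the heat marker HSP101 one of 10.21 ± 0.08 at 39 °C in wild type. Scaling bears on every heat result. The TMM factors, which adjust library size so that most genes stay level, were 0.578 to 0.633 at 39 °C and 1.095 to 1.273 in all other libraries, and with total counts alone the median log2 change of all genes was -0.95 in the wild-type heat response and -1.08 in that of exa1-1, in place of -0.07 and -0.08 with TMM. For salt it was -0.13 and -0.14, in place of -0.01 in both genotypes. Changes are therefore given relative to most genes. The value is given where one of the 10 genes changed direction with total counts and was called under either scaling. A further 14 changes of direction, called under neither scaling, are not listed. Root and shoot markers moved as well. The 9 root marker genes, none at 0 in any group, made up 0.246 to 0.28% of counts in wild type on 1/2 MS, 0.102 to 0.107% with NaCl, 0.159 to 0.167% at 23 °C and 0.022 to 0.0237% at 39 °C, and in exa1-1 0.25 to 0.278%, 0.127 to 0.132%, 0.196 to 0.275% and 0.0269 to 0.0271%. The 4 green shoot markers, none at 0, made up 0.588 to 0.684%, 0.97 to 1.04%, 1.1 to 1.13% and 1.62 to 1.7% in wild type, and 0.522 to 0.541%, 0.561 to 0.59%, 0.865 to 1.17% and 1.31 to 1.32% in exa1-1. These shares are sums, and single root markers went both ways. By edgeR 7 of the 9 were lower and 2 higher under NaCl in each genotype. At 39 °C 7 were lower and 1 higher in wild type, and 8 lower and 1 higher in exa1-1. The part of these tissue markers in the results below was not tested, and in whole seedlings fewer cells of a type and less RNA per cell cannot be told apart.

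**Figure D1:**
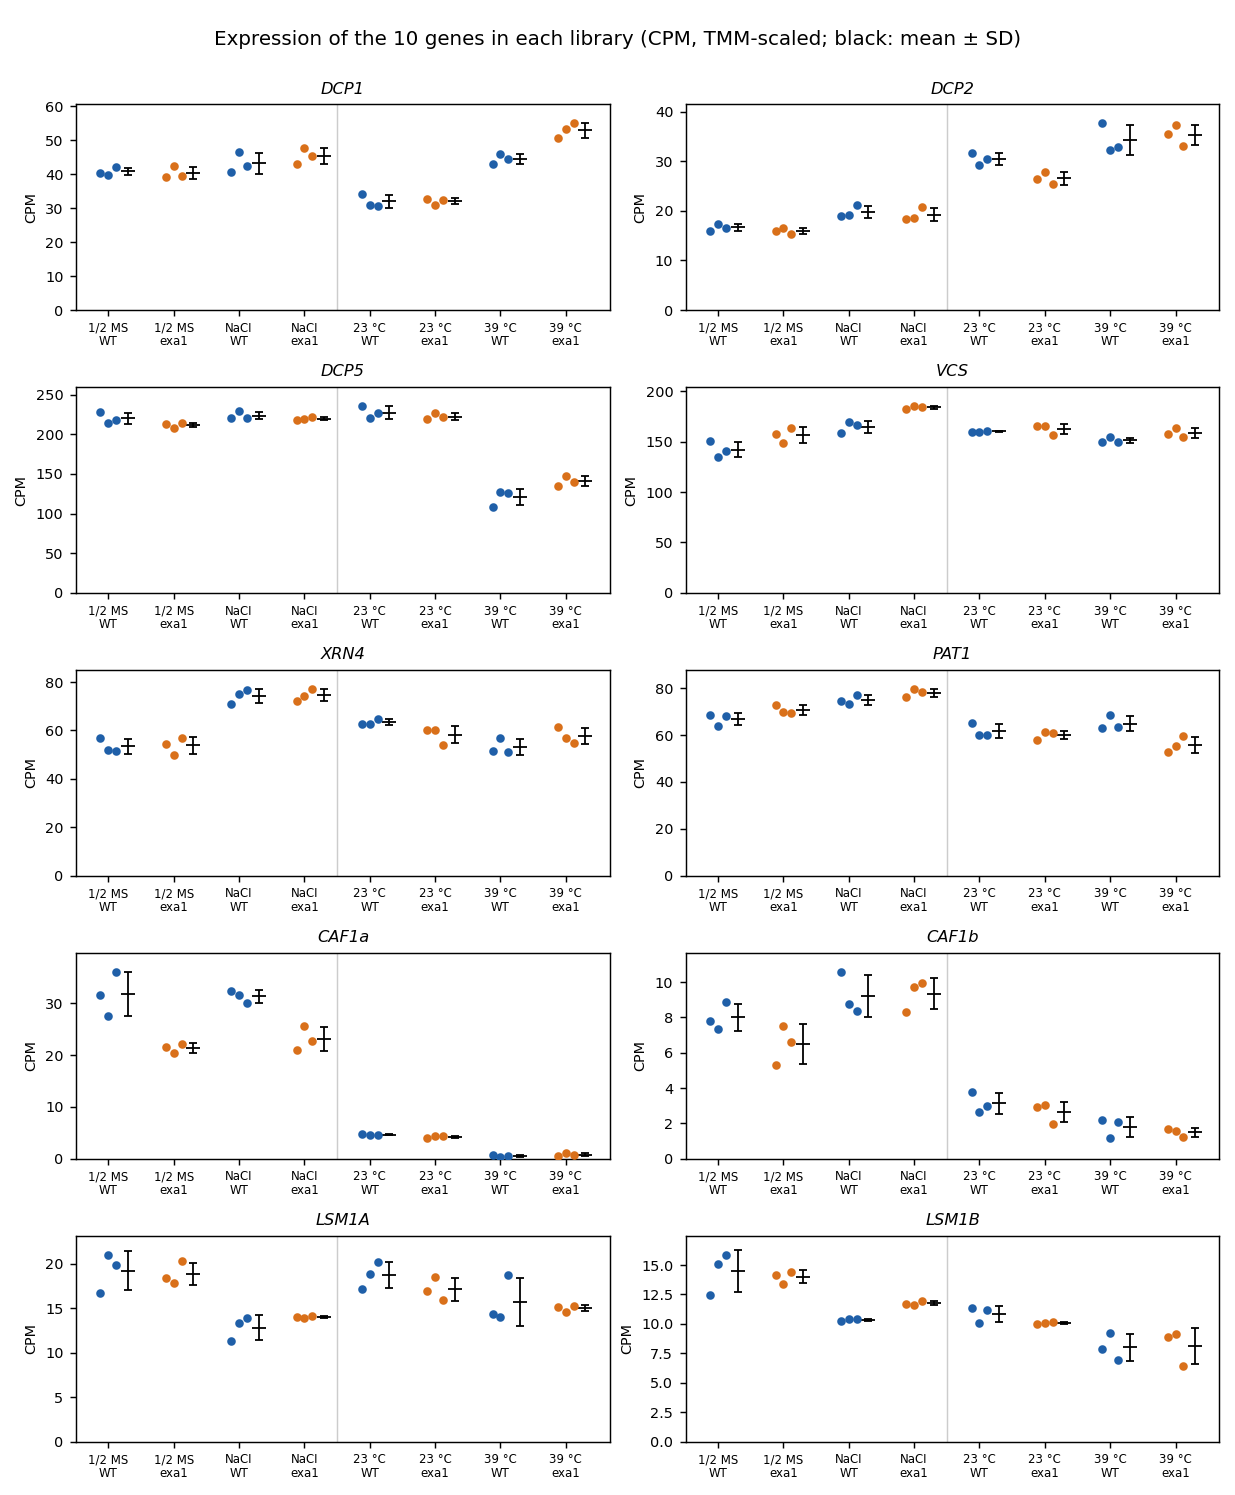
CPM (counts scaled to TMM-adjusted library size over all 24 libraries, linear axes from 0) of the 10 genes in each library, blue for wild type and orange for exa1-1, with black bars for mean ± SD of 3 libraries. In wild type CAF1a has a mean of 31.77 on 1/2 MS, 4.621 at 23 °C and 0.51 at 39 °C. VCS stays between group means of 142.1 (wild type on 1/2 MS) and 184.1 (exa1-1 with NaCl).

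The 10 genes differed widely in how far their levels moved over the 8 groups. CAF1a spanned 62.3-fold between its highest and lowest group mean CPM, and the standard deviation of its log2 CPM over 24 libraries, 2.23, exceeded that of 98.5% of 21907 genes. CAF1b spanned 6.26-fold and DCP2 2.22-fold. DCP5 spanned 1.89-fold, LSM1B 1.81-fold, DCP1 1.66-fold and LSM1A 1.5-fold. XRN4 and PAT1 each spanned 1.4-fold and VCS 1.3-fold. By the standard deviation of log2 CPM, VCS varied less than all but 0.347% of genes. These spans are with TMM. With total counts VCS changed at 39 °C by -0.96 in wild type and -1.03 in exa1-1, beside medians of -0.95 and -1.08 for all genes. Levels of different genes were compared on the deposited FPKM, which are per length. FPKM lack the TMM factor, so their differences between groups are on another scale than these spans. DCP5 had the highest FPKM of the 10 in each group, at 109.7 ± 3.12 (SD, n = 3) in wild type on 1/2 MS and 29.05 ± 3.35 at 39 °C, and VCS the next highest, at 35.76 ± 1.76 and 18.39 ± 1.00. CAF1b was lowest in 6 groups, with 7.632 ± 0.757 in wild type on 1/2 MS, while at 39 °C CAF1a was lowest in both genotypes, with 0.2301 ± 0.0623 in wild type and 0.3342 ± 0.0993 in exa1-1. In wild type on 1/2 MS CAF1a stood at position 5 of 10, at 29.93 ± 3.99, beside DCP1 at 29.96 ± 0.839, from which it did not differ beyond the spread of its libraries.

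The salt comparison asks how 60 min of NaCl changed these mRNAs in each genotype. In wild type, XRN4, DCP2, VCS and PAT1 rose and both LSM1 genes fell, while both deadenylase genes, DCP1 and DCP5 did not pass the test. That is 4 of 10 higher and 2 of 10 lower (edgeR, adjusted p under 0.05), where 35.3% of 21462 genes were higher and 35.6% lower, so the number of higher genes was near the share of genes in general. The median change of the 10 was 0.11 against -0.01 for all genes. No change exceeded 0.59 on the log2 scale.

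XRN4 had the largest increase in wild type. Its CPM were 56.94, 51.78 and 51.54 on 1/2 MS and 70.96, 74.86 and 76.91 under NaCl in wild type, and 54.58, 50.06 and 57.03 against 72.37, 74.16 and 77.17 in exa1-1. Every NaCl library stood above every control library in both genotypes. The log2 change was 0.46 ± 0.06 (edgeR adjusted p = 2.7e-07) in wild type and 0.47 ± 0.07 (2.21e-07) in exa1-1, and XRN4 was also called with total counts. LSM1A, one of the paired genes for the LSM1 subunit, had CPM of 16.77, 21.05 and 19.86 on 1/2 MS and 11.27, 13.33 and 13.89 under NaCl in wild type. The groups did not overlap, and the log2 change was -0.59 ± 0.14 (adjusted p = 7.59e-06). LSM1B, the other gene, had CPM of 12.48, 15.05 and 15.88 against 10.27, 10.37 and 10.42, with a log2 change of -0.49 ± 0.11 (4.37e-05). In exa1-1 the changes were -0.43 ± 0.06 for LSM1A (0.000288) and -0.25 ± 0.04 for LSM1B (0.015; 0.0574 without exa1-1 1/2 MS replicate 3). LSM1A overlaps the antisense gene AT1G19130 by 45 bases and an antisense RNA by 194 bases, and since the sources used here do not give the strand setting of the counting, reads from that stretch cannot be told apart.

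Among the decapping proteins, the changes under NaCl were small. In wild type DCP2, the catalytic subunit, rose by 0.24 ± 0.06 (edgeR adjusted p = 0.00601), the scaffold gene VCS by 0.20 ± 0.05 (0.00104) and the activator gene PAT1 by 0.16 ± 0.04 (0.00522), and in exa1-1 by 0.28 ± 0.06 (0.00214), 0.23 ± 0.05 (0.000255) and 0.14 ± 0.03 (0.00822). None of these 3 was called with total counts, in either genotype (adjusted p from 0.0687 to 0.752). DCP1 had 0.07 ± 0.06 (0.269) in wild type and rose by 0.17 ± 0.05 (0.0128) in exa1-1, a call lost with total counts (0.558) and without exa1-1 NaCl replicate 2 (0.0769). DCP5 had 0.01 ± 0.03 (0.771) in wild type, where its sign turned to -0.11 with total counts, and 0.06 ± 0.02 (0.222) in exa1-1. The deadenylase gene CAF1a had -0.03 ± 0.11 (0.776) in wild type and 0.11 ± 0.09 (0.241) in exa1-1. CAF1b had 0.19 ± 0.13 (0.169) in wild type. In exa1-1 its CPM were 5.294, 7.52 and 6.632 on 1/2 MS and 8.334, 9.702 and 9.968 under NaCl, without overlap, and it rose by 0.52 ± 0.16 (0.000896).

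In exa1-1, 6 of 10 were therefore higher under NaCl and 2 of 10 lower, where 35.7% and 36.2% of genes were. The difference between the genotypes in the salt response was called by edgeR for 0 of 10 genes, against 11.2% of all genes. An unadjusted edgeR p under 0.05 was found for 5356 of all 21462 genes and for 0 of the 10. DESeq2 also called 0. The largest such difference was that of CAF1b, 0.33 ± 0.21 (adjusted p = 0.258).

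The heat comparison asks the same of 60 min at 39 °C. Both deadenylase genes, DCP5 and LSM1B were called lower in both genotypes. The calls of CAF1b, and that of LSM1B in exa1-1, were lost under some alternatives. DCP1 and DCP2 rose relative to most genes, though both fell with total counts and the wild-type call of DCP2 was lost under further alternatives. In wild type 2 of 10 were higher and 6 of 10 lower, where 38.4% of 20972 genes were higher and 41.6% lower. In exa1-1 2 were higher and 4 lower, where 38.4% were higher and 41.8% lower. The median change of the 10 was -0.25 in wild type and -0.14 in exa1-1, beside -0.07 and -0.08 for all genes. With total counts all 10 fell in both genotypes, but there the median change of all genes was -0.95 in wild type and -1.08 in exa1-1. The root marker share was also lower and the green marker share higher at 39 °C, as given above.

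CAF1a had CPM of 4.7, 4.512 and 4.65 at 23 °C and 0.6641, 0.3534 and 0.5125 at 39 °C in wild type, and 3.954, 4.323 and 4.374 against 0.538, 1.013 and 0.7398 in exa1-1. The groups were far apart, but the 39 °C values rest on few reads, with counts of 7, 4 and 6 in wild type and 6, 11 and 8 in exa1-1 against 91 to 109 at 23 °C, and the gene passed the filter on low counts only through the 23 °C groups. It was also called with no filter, with log2 changes of -3.19 (adjusted p = 1.8e-12) and -2.48 (1.82e-10). With the filter the fall was 8.98-fold in wild type (log2 change -3.17 ± 0.21, edgeR adjusted p = 1.56e-09) and 5.48-fold in exa1-1 (-2.45 ± 0.23, 2.3e-08). The difference between the genotypes, 0.71 ± 0.31, did not pass (0.352). CAF1b had CPM of 3.771, 2.628 and 2.987 against 2.182, 1.149 and 2.05 in wild type, and 2.914, 3.018 and 1.968 against 1.704, 1.566 and 1.202 in exa1-1. No 39 °C library reached a control library of its genotype, and the log2 changes were -0.79 ± 0.31 (0.0115) and -0.82 ± 0.23 (0.0131). Each of these CAF1b calls rested on 1 library, since it was lost without wild-type 39 °C replicate 2 (-0.56, 0.077) and without exa1-1 39 °C replicate 3 (-0.68, 0.0625).

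DCP5, the most abundant of the 10 per length, fell in both genotypes. Its CPM were 235.7, 220 and 226.4 at 23 °C and 108.8, 126.7 and 126.2 at 39 °C in wild type, and 218.8, 226.7 and 221.4 against 135, 147.3 and 139.5 in exa1-1. The groups did not overlap, with log2 changes of -0.91 ± 0.08 (edgeR adjusted p = 8.65e-11) and -0.66 ± 0.04 (1.05e-08). DCP1 had CPM of 34.19, 30.97 and 30.76 against 42.88, 45.94 and 44.42 in wild type and 32.59, 31.04 and 32.5 against 50.57, 53.23 and 55.03 in exa1-1. It rose by 0.48 ± 0.06 (1.88e-06) and 0.73 ± 0.04 (3.95e-09), but the sign turned with total counts, to -0.40 and -0.27. DCP2 rose by 0.41 ± 0.06 (6.02e-05) in exa1-1 and by 0.17 ± 0.08 (0.0449) in wild type, and its sign turned too, to -0.58 and -0.71. The wild-type call of DCP2 was lost when any 1 of the 3 replicates at 23 °C was left out (0.0564 to 0.159) and without 39 °C replicate 1 (0.247). It was also lost with no filter on low counts (0.15, 0.111).

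Relative to most genes, the remaining genes changed at 39 °C by at most 0.43 on the log2 scale, the fall of LSM1B in wild type. XRN4 fell by 0.25 ± 0.05 (edgeR adjusted p = 0.00192) in wild type and had -0.01 ± 0.07 (0.886) in exa1-1. LSM1B fell in both, with -0.43 ± 0.13 (0.00648) and -0.31 ± 0.16 (0.0443), the second call being lost without exa1-1 39 °C replicate 3 (-0.16, 0.283), in DESeq2 (0.0718) and with median-of-ratios scaling (0.0597). LSM1A had -0.25 ± 0.15 (0.0413) in wild type, where the groups overlapped and leaving out 23 °C replicate 2 or 3 or 39 °C replicate 1 or 2 ended the call (0.0617 to 0.184), as did DESeq2 (0.075) and median-of-ratios scaling (0.0572). In exa1-1 LSM1A had -0.19 ± 0.07 (0.124), which passed without exa1-1 23 °C replicate 3 (-0.27, 0.0378). VCS had -0.08 ± 0.02 (0.159) and -0.03 ± 0.04 (0.571). PAT1 had 0.08 ± 0.06 (0.274) in wild type, turning to -0.80 with total counts, and -0.10 ± 0.06 (0.16) in exa1-1.

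The genotypes' heat responses differed for 0 of 10 genes by edgeR, where 8.04% of all genes were called. An unadjusted edgeR p under 0.05 was found for 4884 of all 20972 genes and for 4 of the 10. Of these 4, the difference was 0.25 ± 0.07 for DCP1 (adjusted p = 0.105), 0.24 ± 0.10 for DCP2 (0.18), 0.25 ± 0.09 for DCP5 (0.0848) and 0.24 ± 0.09 for XRN4 (0.122), each less negative or more positive in exa1-1. DCP5 was called by DESeq2 (0.26, 0.0478) and in an edgeR fit of all 24 libraries (0.25, 0.0248). The other alternatives called 0 of 10, among them total counts, FPKM and leaving out any 1 library. With total counts the median of this difference over all genes was -0.11, in place of 0.01.

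**Figure D2:**
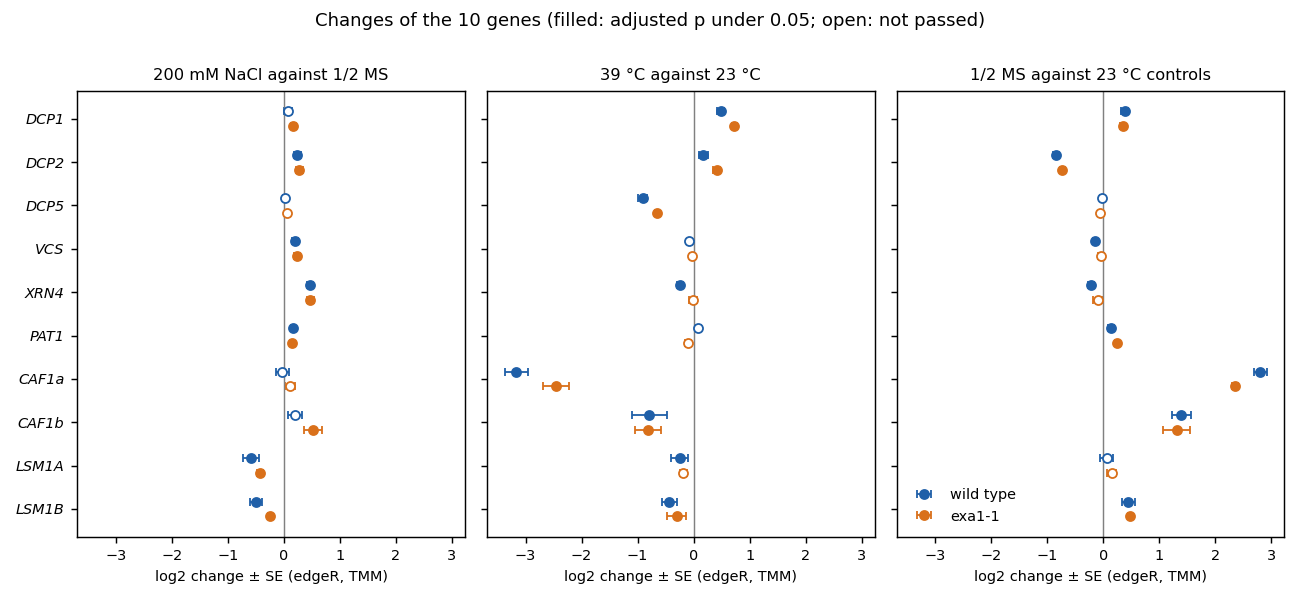
Log2 change (edgeR, TMM scaling) of the 10 genes in the salt response, the heat response and the difference between unstressed control sets, in wild type and exa1-1, with bars of 1 SE over 3 libraries per group and filled points for an adjusted p under 0.05. CAF1a lies at -3.17 and -2.45 in heat, near 0 in salt and at 2.80 and 2.35 between the control sets.

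Some of the largest differences, those of CAF1b and DCP2, were between plants that had not been stressed. The series description calls both 1/2 MS and 23 °C normal conditions, and the sources used here do not say what else separated these control sets, so that the control set and the series cannot be told apart. CAF1a and CAF1b were much higher, and DCP2 lower, in the 1/2 MS controls of both genotypes. In wild type 5 of 10 genes were higher on 1/2 MS and 3 lower, where 35.3% of 21262 genes were higher and 33.7% lower, and in exa1-1 5 were higher and 1 lower, where 32.7% and 32.9% were.

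CAF1a had CPM of 31.55, 27.65 and 36.1 in wild type on 1/2 MS against 4.7, 4.512 and 4.65 at 23 °C, and 21.58, 20.4 and 22.2 against 3.954, 4.323 and 4.374 in exa1-1. The lowest 1/2 MS library was several times the highest 23 °C library, and the difference was 6.99-fold (log2 2.80 ± 0.11, edgeR adjusted p = 6.47e-14) and 5.09-fold (2.35 ± 0.06, 1.31e-12). CAF1b had CPM of 7.788, 7.346 and 8.875 against 3.771, 2.628 and 2.987 in wild type, a difference of 1.39 ± 0.17 (7.24e-07), and of 1.31 ± 0.24 (2.7e-06) in exa1-1. DCP2 went the other way. Its CPM were 15.97, 17.34 and 16.6 on 1/2 MS and 31.66, 29.3 and 30.38 at 23 °C in wild type, with a log2 difference of -0.85 ± 0.05 (1.16e-09), and 15.97, 16.47 and 15.25 against 26.47, 27.9 and 25.32 in exa1-1, with -0.73 ± 0.05 (1.21e-08). The groups did not overlap. DCP1, by contrast with its catalytic partner, was higher on 1/2 MS by 0.38 ± 0.05 (1.24e-05) and 0.34 ± 0.04 (3.96e-05), and LSM1B by 0.44 ± 0.12 (0.000392) and 0.48 ± 0.04 (0.00021). LSM1A, with 0.06 ± 0.12 (0.593) and 0.15 ± 0.08 (0.17), did not pass in either genotype. In exa1-1 it was called with total counts (0.26, edgeR adjusted p = 0.0257) and with both FPKM settings (limma adjusted p = 0.0271 and 0.0268).

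PAT1 was higher on 1/2 MS by 0.14 ± 0.05 (edgeR adjusted p = 0.028) in wild type, where the groups overlapped and the call was lost in DESeq2 (0.0765) and without 1/2 MS replicate 1 or 3 or 23 °C replicate 2 or 3 (0.0859 to 0.107), and by 0.24 ± 0.03 (0.000514) in exa1-1. VCS and XRN4 were lower in wild type, with -0.15 ± 0.04 (0.0179) and -0.22 ± 0.05 (0.00346). Total counts ended both calls, with 2e-04 for VCS, whose sign turned, and -0.07 (0.321) for XRN4. The VCS call was also lost without wild-type 1/2 MS replicate 2 (0.0874). In exa1-1 VCS had -0.05 ± 0.05 (0.467), and XRN4 had -0.10 ± 0.08 (0.149), which passed without exa1-1 23 °C replicate 3 (-0.15, 0.0456). DCP5 differed by -0.02 ± 0.04 (0.67) and -0.06 ± 0.02 (0.253) and turned to 0.13 with total counts in wild type. Root and green markers differed between the control sets too, as given above.

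Against wild type, exa1-1 differed in few of the 10 genes, and CAF1a was the clearest. On 1/2 MS its CPM of 21.58, 20.4 and 22.2 in exa1-1 were all below the 31.55, 27.65 and 36.1 of wild type, and under NaCl its 21.05, 25.53 and 22.76 were below 32.48, 31.7 and 30.03. The log2 differences were -0.57 ± 0.12 (edgeR adjusted p = 4.72e-05) and -0.43 ± 0.09 (0.000538), 1.48-fold and 1.35-fold lower, and they were called in all alternatives run. At 23 °C, where the gene was low in both genotypes, the difference was -0.13 ± 0.05 (0.62), and at 39 °C 0.58 ± 0.31 (0.354), at 4 to 11 reads per library. The genotype difference on 1/2 MS was not shown to exceed that at 23 °C: their difference, a comparison added after the values were seen, was -0.46 ± 0.13 (0.105; unadjusted p 0.00851). It was called with FPKM and a pseudocount of 1 (0.0423) and without wild-type 1/2 MS replicate 2 (-0.55, 0.0364). In that comparison edgeR and DESeq2 called 0 of 10 genes, where edgeR called 3.5% of all genes. An unadjusted edgeR p under 0.05 was found for 4082 of all 21262 genes and for 1 of the 10.

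On 1/2 MS CAF1a was the only one of the 10 called between genotypes, where 18.3% of genes were. VCS, at 0.14 ± 0.06, had an edgeR adjusted p of 0.0501 and passed under 6 alternatives, among them DESeq2 (0.0449) and leaving out wild-type replicate 1 (0.0245) or exa1-1 replicate 2 (0.018). Under NaCl 2 of 10 were called, where 29.5% of genes were, CAF1a and VCS. VCS had CPM of 182.2, 185.4 and 184.6 in exa1-1 against 158.2, 169.6 and 166.5 in wild type, higher by 0.17 ± 0.03 (0.0114). CAF1b had -0.30 ± 0.16 (0.119) on 1/2 MS, a difference that passed without exa1-1 1/2 MS replicate 2 (-0.41, 0.0499), and 0.03 ± 0.13 (0.865) under NaCl.

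At 23 °C edgeR called 0 of 10, where 19.4% of genes were called. DESeq2 also called 0. An unadjusted edgeR p under 0.05 was found for 6773 of all 20972 genes and for 1 of the 10. This was DCP2, with -0.20 ± 0.05 (edgeR adjusted p = 0.0652), which the fit of all 24 libraries called (0.0358). At 39 °C 3 of 10 were called, where 24.4% of genes were. DCP1, with the CPM given above for heat, was higher in exa1-1 by 0.25 ± 0.05 (0.00951), and its groups did not overlap. DCP5 was higher by 0.22 ± 0.08 (0.0174), a call lost with total counts (0.0832), without wild-type 39 °C replicate 1 (0.0923) and without exa1-1 39 °C replicate 2 (0.0766). PAT1 was lower, with CPM of 52.64, 55.44 and 59.56 against 63, 68.38 and 63.3 and a log2 difference of -0.22 ± 0.07 (0.0218), a call lost without wild-type replicate 2 (0.0935) and without exa1-1 replicate 1 (0.0951) or 2 (0.0559).

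The heat and salt responses, each against its own control, were also set against each other. In wild type the heat change was below the salt change for 5 of 10, where 38.4% of genes were, and above it for 2 of 10, where 34.9% were, so the 7 genes called were near the 73.3% of all genes called in either direction. CAF1a, with the few reads at 39 °C given above, differed by -3.16 ± 0.25 (edgeR adjusted p = 2.06e-11), CAF1b by -0.997 ± 0.34 (0.00279), DCP5 by -0.94 ± 0.08 (2.2e-12), XRN4 by -0.73 ± 0.08 (1.49e-08) and VCS by -0.30 ± 0.06 (0.000343). DCP1, at 0.39 ± 0.08 (0.00017), and LSM1A, at 0.33 ± 0.20 (0.0445), were above, and both turned with total counts, to -0.35 and -0.42. The LSM1A call was also lost in DESeq2 (0.0608) and without 1/2 MS replicate 2 or 3, NaCl replicate 1, 23 °C replicate 1 or 2 or 39 °C replicate 3 (0.0608 to 0.283). In exa1-1 6 of 10 were below and 1 above, where 38.2% and 36% of genes were. CAF1a differed there by -2.57 ± 0.25 (2.92e-10), CAF1b by -1.34 ± 0.29 (0.000228) and PAT1 by -0.25 ± 0.07 (0.00482), and DCP1, at 0.56 ± 0.07 (9.93e-07), turned to -0.31 with total counts.

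The paired genes were compared as shares of their summed FPKM. CAF1a gave 79.6 ± 0.714% of CAF1a plus CAF1b in wild type on 1/2 MS, 77.1 ± 1.68% with NaCl, 59.6 ± 3.96% at 23 °C and 22.1 ± 1.97% at 39 °C (SD, n = 3). In exa1-1 it gave 76.6 ± 3.64%, 71 ± 1.51%, 61.5 ± 6.25% and 33.5 ± 8.46%. CAF1a thus was the more abundant gene of the pair in 6 groups and the less abundant at 39 °C. There the libraries ranged from 19.8 to 23.3% in wild type and from 23.8 to 39% in exa1-1. These 39 °C shares rest on few reads, with counts of the pair together of 30, 17 and 30 in wild type and 25, 28 and 21 in exa1-1. The heat groups and the control sets did not overlap in this share in either genotype, and of the 10 comparisons computed for this share 8, these 4 among them, had the smallest p that an exact two-sided permutation test allows with 3 libraries against 3, 0.1. LSM1A gave 62.1 to 72.6% of LSM1A plus LSM1B over the 8 group means, and was the larger share in all of them.

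CAF1a and CAF1b belong to a family of 11 CAF1-like genes in the count table, and the balance of that family was looked at after its values were seen, so it is a description with no test of the shares. The summed FPKM of the family was 205.8 to 255.1 over the 24 libraries. FPKM are scaled to library totals without the TMM factor, so this range is on another scale than the CPM of the single genes, while shares within a library do not depend on that factor. In wild type CAF1a plus CAF1b made up 15.9 ± 1.9% of it (SD, n = 3) on 1/2 MS, 14.9 ± 0.49% with NaCl, 2.91 ± 0.16% at 23 °C and 0.418 ± 0.115% at 39 °C, and in exa1-1 11.8 ± 0.52%, 11.3 ± 0.90%, 2.81 ± 0.15% and 0.43 ± 0.066%. AT2G32070 and AT1G15920 together made up 17 ± 0.55% at 23 °C and 46.9 ± 2.07% at 39 °C in wild type, and 19.3 ± 1.16% and 51.7 ± 1.89% in exa1-1. AT5G10960, the largest contributor in each wild-type group, made up 40.8 ± 1.42% on 1/2 MS, 39.6 ± 0.64% with NaCl, 53.2 ± 0.56% at 23 °C and 30.3 ± 0.79% at 39 °C there. In exa1-1 at 39 °C it made up 26.4 ± 0.56%, beside 26.5 ± 0.5% for AT2G32070.

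**Figure D3:**
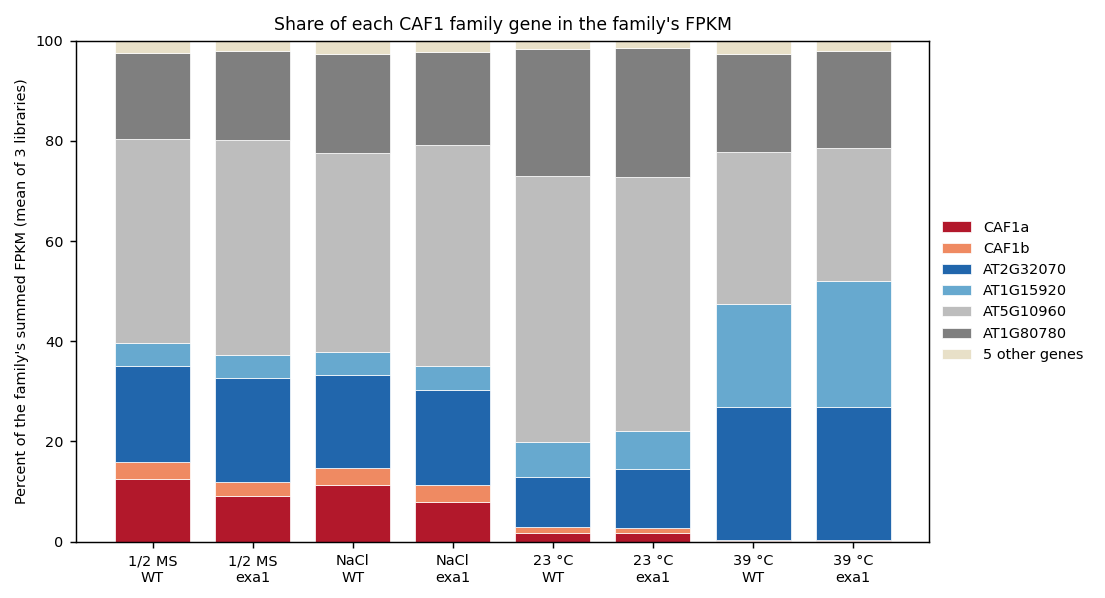
Share of the summed FPKM of 11 CAF1-like genes (percent, mean of 3 libraries per group) given by each gene or the remaining genes together, in the 8 groups. In wild type CAF1a plus CAF1b gives 15.9% on 1/2 MS, 2.91% at 23 °C and 0.418% at 39 °C, while AT2G32070 plus AT1G15920 takes 46.9% there.

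These family members were tested gene by gene in the same fits. AT2G32070 had counts of 505, 633 and 615 at 23 °C and 1515, 1494 and 1870 at 39 °C in wild type, and AT1G15920 had 535, 569 and 606 against 1845, 1651 and 1914. All 39 °C libraries stood well above all controls. AT2G32070 rose by 2.45 ± 0.08 (edgeR adjusted p = 7.76e-17) in wild type and 2.29 ± 0.04 (1.75e-16) in exa1-1, and AT1G15920 by 2.63 ± 0.09 (1.84e-16) and 2.87 ± 0.08 (4.07e-17). With total counts the wild-type increases were 1.56 and 1.75, so both genes rose under either scaling. AT1G61470, a low gene, rose by 4.26 ± 0.44 (1.06e-10) and 4.10 ± 0.41 (4.15e-10). Its counts were 4, 15 and 16 at 23 °C and 124, 112 and 107 at 39 °C in wild type. In exa1-1 they were 10, 16 and 5 against 61, 90 and 96, so the size of these changes rests on few reads at 23 °C. AT1G80780 rose by 0.68 ± 0.07 (6.38e-09) and AT5G10960 by 0.24 ± 0.03 (0.000674) in wild type relative to most genes, and both turned with total counts, to -0.20 and -0.64. Under NaCl AT5G10960 had 0.07 ± 0.05 (0.151) in wild type, turning to -0.05 with total counts, and rose by 0.32 ± 0.03 (2.02e-06) in exa1-1, and the difference between these responses was 0.25 ± 0.06 (0.0145).

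The partners of the 10 genes were taken from lists of loci by known function. Their counts in wild type stand beside 35.3% of all genes higher and 35.6% lower under NaCl, and 38.4% higher and 41.6% lower at 39 °C. These shares are with TMM. With total counts the median log2 change of all genes in wild type was -0.13 under NaCl and -0.95 at 39 °C. Of 11 decapping partners, among them RNA helicases and the PAT1-like genes, 5 rose and 4 fell under NaCl in wild type and 5 rose and 6 fell at 39 °C. These shares were near those of all genes, and with total counts the counts became 2 and 4, and 2 and 8. Their median changes were 0.12 and -0.18. AT4G14990, annotated like AT1G79090 as a PAT1 protein, rose by 0.62 ± 0.06 (edgeR adjusted p = 1.17e-08) under NaCl, and in exa1-1 by 0.69 ± 0.07 (1.47e-09), where it fell at 39 °C with -1.16 ± 0.11 (1.05e-10). AT3G22270, also annotated as a PAT1 protein, responded to heat differently in the genotypes, with a response in exa1-1 minus that in wild type of -0.43 ± 0.10 (0.0144). The helicase gene AT3G61240 fell under both stresses in wild type, by 0.45 ± 0.06 (1.53e-07) and 0.87 ± 0.12 (5.2e-09). AT4G01290 fell most at 39 °C, with -1.78 ± 0.08 (4e-15) in wild type, and AT2G15560 rose most, with 1.96 ± 0.04 (2.54e-15; 1.08 with total counts).

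Among the other subunits of the LSM rings, more fell than rose under NaCl, and at 39 °C those called rose relative to most genes, a direction that turned with total counts for many of them. Of 9 genes, 1 rose and 5 fell under NaCl in each genotype (1 and 6 in wild type and 0 and 7 in exa1-1 with total counts), with a median change of -0.19 in wild type beside -0.01 for all genes. Among all genes 35.3% rose and 35.6% fell in wild type, and 35.7% and 36.2% in exa1-1. At 39 °C 9 rose and 0 fell in wild type and 8 rose and 0 fell in exa1-1, with a median of 0.57 in wild type beside -0.07 for all genes, but with total counts these were 1 and 5, and 0 and 7. With TMM 38.4% of all genes rose in each genotype, while 41.6% fell in wild type and 41.8% in exa1-1. SAD1 (LSM5) fell by 0.75 ± 0.10 (edgeR adjusted p = 2.05e-07) and EMB2816 (LSM7) by 0.63 ± 0.13 (1.5e-05) under NaCl in wild type, beside the falls of both LSM1 genes. LSM3B rose by 0.36 ± 0.08 (2.94e-05). LSM3A rose by 1.28 ± 0.11 (1.34e-10) at 39 °C in wild type and kept its sign with total counts (0.39), while emb1644 (LSM4), LSM6B and LSM8 rose by 0.74, 0.75 and 0.74 and turned to -0.14 each with total counts. LSM8 is the subunit that takes the place of LSM1 in the nuclear ring.

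Of 19 tested genes of CCR4-NOT and other deadenylation, from a list of 23, 8 rose and 6 fell under NaCl and 10 rose and 7 fell at 39 °C in wild type (3 and 6, and 4 and 13, with total counts), with median changes of 0.07 and 0.20. Among all genes 35.3% rose and 35.6% fell under NaCl, and 38.4% rose and 41.6% fell at 39 °C. AT5G12980, annotated as Rcd1-like, fell by 0.69 ± 0.08 (edgeR adjusted p = 2e-07) under NaCl in wild type and rose by 1.13 ± 0.06 (2.44e-10; 0.14 with total counts) at 39 °C in exa1-1. NOT2a (AT1G07705) fell by 0.53 ± 0.13 (3.29e-06) under NaCl. AT5G60170, which had 0.84 ± 0.05 (8.19e-11) at 39 °C, turned to -0.03 with total counts.

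Of 12 genes of decay from the 3′ end, 1 rose and 5 fell under NaCl and 4 rose and 6 fell at 39 °C in wild type (1 and 9, and 2 and 9, with total counts), with median changes of -0.11 and -0.10. Among all genes 35.3% rose and 35.6% fell under NaCl, and 38.4% rose and 41.6% fell at 39 °C. The gene that rose under both was AT1G77680 (SOV, SUPPRESSOR OF VARICOSE in RefSeq), an exonuclease gene named for its effect on mutants of VCS. It rose by 0.79 ± 0.04 (edgeR adjusted p = 1.64e-11) under NaCl and by 2.54 ± 0.02 (2.27e-17; 1.66 with total counts) at 39 °C in wild type, and by 1.15 ± 0.05 (3.11e-14) and 2.63 ± 0.08 (1.12e-17) in exa1-1. Its salt response was larger in exa1-1, by 0.36 ± 0.06 (0.00323). RRP4, an exosome subunit, fell by 0.63 ± 0.07 (7.75e-09) under NaCl and rose by 1.66 ± 0.07 (1.42e-13; 0.78 with total counts) at 39 °C in wild type.

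Of the nuclear exonuclease genes related to XRN4, XRN3 rose by 0.22 ± 0.04 (edgeR adjusted p = 0.000151) under NaCl in wild type, and XRN2 fell by 0.73 ± 0.09 (5.51e-09) at 39 °C. Of 4 genes of nonsense-mediated decay, 3 rose and 0 fell under NaCl in each genotype, also with total counts, and the median change was 0.33 in wild type. Among all genes 35.3% rose and 35.6% fell in wild type, and 35.7% and 36.2% in exa1-1. UPF3 rose by 0.49 ± 0.03 (edgeR adjusted p = 4.34e-09) and AT2G39260 by 0.25 ± 0.03 (0.00035) in wild type.

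**Figure D4:**
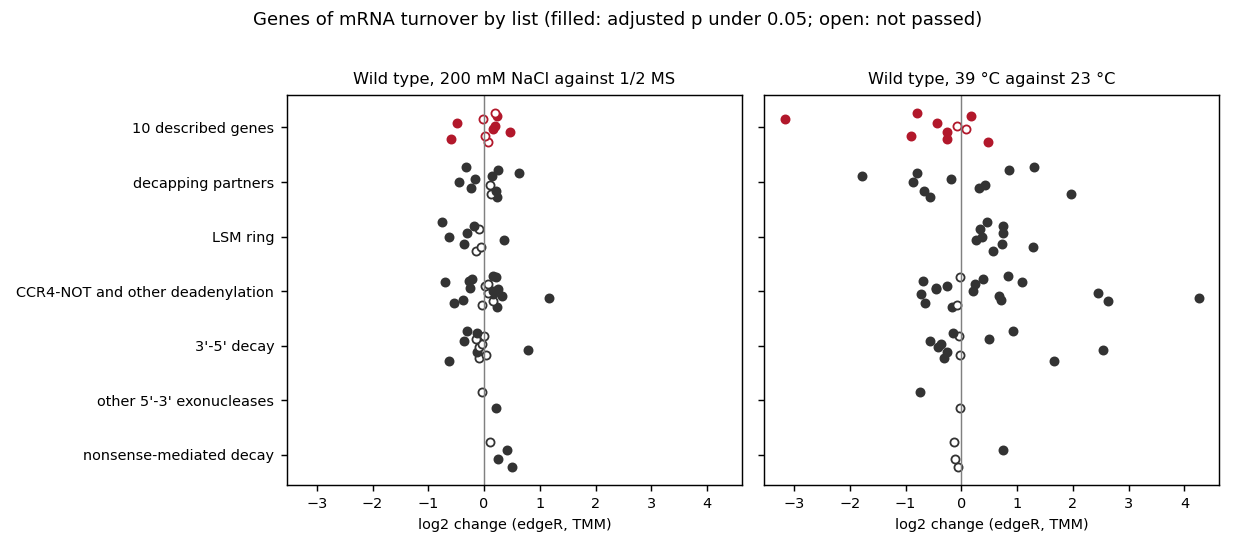
Log2 change (edgeR, TMM scaling) of each tested gene of the 6 lists of other mRNA turnover genes and of the 10 genes described here, in the salt and heat responses of wild type, 1 point per gene, filled for an adjusted p under 0.05. The LSM ring lies mostly below 0 in salt, with 5 of 9 lower, and above 0 in heat, with 9 of 9 higher relative to most genes but 1 of 9 higher with total counts.

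The likeness of patterns was described by Pearson correlation of log2 CPM over the 24 libraries, among 17405 genes with a mean of at least 1 log2 CPM. The libraries share their groups and scaling. CAF1a was most like WRKY11 (r = 0.989), AT1G30760 (0.988) and CINV2 (0.987), and CAF1b most like AT5G37990 (0.968), MYB122 (0.967) and AT2G22880 (0.967). DCP5 was most like AT5G43730 and AT4G01290 (0.989 each), the second being the decapping partner that fell most at 39 °C. DCP2 was most like SNX1 (0.989), and DCP1 most like AT5G61880 (0.955). VCS, whose level hardly moved relative to most genes, had its highest value with VPS35B, 0.891. Among the 10 genes, CAF1a and CAF1b correlated at 0.95 over 24 libraries, at 0.45 within the salt series and at 0.8 within the heat series. LSM1A and LSM1B correlated at 0.39 over 24 libraries, at 0.95 within the salt series and at 0.36 within the heat series.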

How the data were processed

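The 10 genes and the lists of related genes were chosen with earlier results of these data known. The deposited gene counts were whole, unnormalized numbers, and the deposited FPKM values were scaled by the authors to gene length and library total, since the ratio of count to FPKM followed that product in every gene checked. The submitters' processing notes name HISAT2 2.0.4, HTSeq 0.6.1p1 and the build TAIR10. The sources used here do not give the counting mode, strand setting or annotation.

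Counts were tested with edgeR 4.0.16 (R 4.3.3), by the quasi-likelihood F test with TMM scaling, the default filter on low counts and Benjamini-Hochberg adjustment over all genes tested, at an adjusted p under 0.05. The salt, heat and control comparisons used 12 libraries each (21462, 20972 and 21262 genes), and heat minus salt used all 24 (21907 genes). All 10 genes passed each filter. The SE of a log2 change was computed over the libraries' log2 CPM (prior count 2), and printed CPM use TMM factors over all 24 libraries. From each list, up to 4 genes per comparison with the smallest adjusted p among those passing could be named. The CAF1 family shares and a genotype by control set comparison were added after the values were seen. Alternatives were other scalings, no filter, DESeq2 1.42.0, FPKM with limma 3.58.1 (log2 of FPKM plus 0.1 or 1), the replicate number as a block, 1 fit of all libraries and leaving out each library. On simulated data the edgeR test recovered 100% of changes of 1 (log2) and 55% of changes of 0.5 in the heat response of wild type. For heat minus salt in wild type it recovered 81% and 15%. The simulation changed few genes, none of them low in counts. It therefore does not bear on the scaling at 39 °C or on genes with few reads. Counting precision limits CAF1a at 39 °C most. 1 gene of the related lists and 1 promoter sequence are not reported here.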

Additional observations from a re-analysis of the deposited data

How the results depend on the processing

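Scaling decided most changes of direction. The following log2 values are given with total counts, with FPKM plus 0.1 and with FPKM plus 1, in that order. DCP5 turned to -0.11, -0.11 and -0.10 in the salt response of wild type, and to 0.13, 0.13 and 0.13 between the control sets of wild type, where VCS turned to 2e-04 with total counts only. In the heat response of wild type DCP1 turned to -0.40, -0.40 and -0.38, DCP2 to -0.71, -0.71 and -0.66 and PAT1 to -0.80, -0.80 and -0.76. In that of exa1-1 DCP1 turned to -0.27, -0.27 and -0.25 and DCP2 to -0.58, -0.58 and -0.54. In heat minus salt, DCP1 turned to -0.35, -0.35 and -0.33, LSM1A to -0.42, -0.42 and -0.40 and LSM1B to -0.70, -0.70 and -0.59 in wild type, and DCP1 to -0.31, -0.31 and -0.29, DCP2 to -0.73, -0.72 and -0.68 and LSM1A to -0.63, -0.62 and -0.58 in exa1-1. All 3 leave out the TMM factor, and the FPKM settings also differ in unit, test and pseudocount.

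Counts of called genes among the 10 moved as follows. Those with total counts stand beside the shifted medians of all genes given with the scaling factors. In the salt response of exa1-1 the count went from 8 to 4 with total counts and with both FPKM settings, and in the heat response of exa1-1 from 6 to 10 with the same settings (5 with median-of-ratios scaling and DESeq2). With these total-count and FPKM settings it also went from 6 to 4 in the salt response of wild type, 8 to 10 in the heat response of wild type (7 with median-of-ratios scaling, no filter and DESeq2), 3 to 2 between genotypes at 39 °C, 8 to 7 and 6 to 7 between control sets, and 7 to 10 for heat minus salt in each genotype (6 in wild type with median-of-ratios scaling, no filter and DESeq2). Between control sets of wild type it was also 7 with median-of-ratios scaling, DESeq2 and the fit of all 24 libraries. Between genotypes on 1/2 MS it went from 1 to 2 with median-of-ratios scaling, no filter, DESeq2 and the fit of all 24 libraries. It went from 0 to 1 for the heat difference between genotypes with DESeq2 and the fit of all 24 libraries, at 23 °C with the fit of all 24 libraries, and for the genotype by control set comparison with FPKM plus 1, and the cause was not tested. Leaving out 1 library gave 6 to 6 called genes in the salt response of wild type, 7 to 8 in that of exa1-1, 6 to 8 and 4 to 7 in the heat responses, 1 to 3 on 1/2 MS, 2 to 2 under NaCl, 1 to 3 at 39 °C, 7 to 8 and 6 to 7 between control sets, 6 to 7 and 7 to 7 for heat minus salt, 0 to 1 for genotype by control set and 0 to 0 in the rest. Same-numbered libraries did not deviate together (correlations from -0.12 to 0.1 over 48 pairs, 0 above 0.1), and the replicate block left all 150 values on their side of the threshold, with 15160 genes of all called in the salt response of wild type in place of 15227.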

Other observations

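Other genes of mRNA turnover also differed between the unstressed control sets of wild type. In this comparison 35.3% of all genes were higher on 1/2 MS and 33.7% lower. Of the 9 further LSM ring genes 7 were higher and 2 lower on 1/2 MS than at 23 °C (7 and 1 with total counts), with a median change of 0.34 beside 0.02 for all genes. SAD1 (LSM5) differed by 0.73 ± 0.08 (SE, n = 3 libraries per group, here and below; edgeR adjusted p = 2.59e-06) and LSM8 by 0.87 ± 0.16 (5.54e-06). The 1/2 MS libraries are also the controls of the salt response in which SAD1 was lower, so these comparisons share libraries. Of 12 genes of decay from the 3′ end 7 were higher and 1 lower (8 and 1 with total counts). AT5G38890, annotated as an OB-fold protein, differed by 1.93 ± 0.08 (3.88e-13) in wild type and 1.5 ± 0.06 (9.74e-12) in exa1-1, and the exosome gene RRP4 by 1.05 ± 0.09 (1.98e-10) and 0.99 ± 0.04 (5.56e-10). AHG2, the PARN deadenylase, was higher by 1.04 ± 0.11 (3.93e-09) in wild type.

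Between genotypes at 39 °C, 3 of 11 decapping partners, 1 of 9 further LSM ring genes, 3 of 19 genes of deadenylation, 2 of 12 genes of decay from the 3′ end and 2 of 4 genes of nonsense-mediated decay were called, beside 24.4% of all genes. LBA1 (UPF1), the helicase of nonsense-mediated decay, was higher in exa1-1 there by 0.28 ± 0.06 (edgeR adjusted p = 0.00252) and kept its sign with total counts, at 0.22. DCP5-L, the gene named after DCP5, was higher by 0.41 ± 0.09 (0.0147). AT3G22270 was lower at 39 °C, with -0.29 ± 0.08 (0.00892), as was AT1G79090 itself, while under NaCl AT3G22270 was higher by 0.18 ± 0.08 (0.027), with overlapping groups.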
